A study of Homo sapiens with 12 samples.

Results

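Transcripts of 9 protein kinases that answer to phorbol esters and diacylglycerol, or belong to the same family, were followed in HT1080 cells given a phorbol ester or a lectin. The members are the protein kinase C (PKC) genes PRKCA, PRKCD, PRKCE, PRKCH, PRKCI and PRKCZ and the protein kinase D (PKD) genes PRKD1, PRKD2 and PRKD3. They were chosen by name, by a rule that uses no measured value, although earlier results of these data were known at the time. They are 9 of the 16633 genes listed in either of 2 expression tables. All 9 were listed in both tables and all 9 passed the filter on low values in both.

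The data came from a study of the proteins found near TIMP2, an inhibitor of matrix metalloproteinases, and this experiment measured gene expression in its cell model. HT1080 is a human fibrosarcoma line, labelled here as wild type, and all cells were grown in dishes in medium depleted of biotin and moved to a low-serum medium (1% serum) for the last 24 h. Polyadenylated RNA gave 12 sequencing libraries, in 4 groups of 3. In the PMA experiment, cells given 40 nM phorbol 12-myristate 13-acetate (PMA) for 24 h (replicates 1 to 3) were set against untreated controls 1 to 3, while the ConA experiment set 24 h of concanavalin A (ConA) at 40 µg/mL, a mannose-binding lectin of the jack bean (replicates 1 to 3), against untreated controls 4 to 6. Each experiment has a table of its own, scaled apart from the other, so each treatment was tested only against the controls of its own table. The labels do not say whether replicates are separate cultures, and p-values therefore measure the spread between these libraries, which may be technical.

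PKC enzymes are serine and threonine kinases that relay signals from receptors at the plasma membrane. Conventional isoforms such as PKC alpha (PRKCA) need calcium and diacylglycerol, calcium-independent isoforms such as PKC delta, epsilon and eta (PRKCD, PRKCE, PRKCH) need diacylglycerol alone, and atypical isoforms (PKC iota and zeta, PRKCI and PRKCZ) respond to neither and work largely through polarity scaffolds. PMA stands in for diacylglycerol at the C1 domains of the conventional and calcium-independent enzymes, and the PKD enzymes also carry C1 domains and lie downstream of calcium-independent PKCs. Long exposure to phorbol esters is known for depleting the sensitive isoforms at the protein level, which RNA sequencing does not measure.

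The promoters of the 4 members with the largest absolute log2 fold changes with either treatment are shown because the transcripts of these genes moved in different directions. The sequences are the 250 bases before an annotated start in RefSeq (GRCh38.p14), 5′ to 3′ on the strand of the gene. Capitals mark the GC box, a binding motif of Sp-family factors (GGGCGG, or CCGCCC on the other strand). They lie at chr17:66302363-66302612 (plus strand, PRKCA), chr3:53160959-53161208 (plus strand, the first of the PRKCD windows), chr19:46717115-46717364 (minus strand, the first of the PRKD2 windows) and chr2:37324834-37325083 (minus strand, PRKD3).
PRKCA: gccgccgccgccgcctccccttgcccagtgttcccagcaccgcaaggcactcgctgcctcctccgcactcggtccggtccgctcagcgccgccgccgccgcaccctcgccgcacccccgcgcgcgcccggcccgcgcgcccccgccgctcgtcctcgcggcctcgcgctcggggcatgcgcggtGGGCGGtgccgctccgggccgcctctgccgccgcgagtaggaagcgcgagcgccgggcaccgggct
PRKCD: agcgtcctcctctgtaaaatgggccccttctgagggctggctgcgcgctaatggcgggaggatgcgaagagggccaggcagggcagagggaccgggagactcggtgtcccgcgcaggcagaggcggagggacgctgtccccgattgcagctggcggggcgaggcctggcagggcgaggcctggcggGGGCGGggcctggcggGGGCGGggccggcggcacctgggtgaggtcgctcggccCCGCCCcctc
PRKD2: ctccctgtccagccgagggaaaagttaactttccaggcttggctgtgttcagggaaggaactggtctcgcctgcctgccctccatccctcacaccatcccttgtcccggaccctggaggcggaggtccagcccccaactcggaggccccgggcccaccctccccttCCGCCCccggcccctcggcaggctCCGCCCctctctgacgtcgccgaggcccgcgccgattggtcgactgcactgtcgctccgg
PRKD3: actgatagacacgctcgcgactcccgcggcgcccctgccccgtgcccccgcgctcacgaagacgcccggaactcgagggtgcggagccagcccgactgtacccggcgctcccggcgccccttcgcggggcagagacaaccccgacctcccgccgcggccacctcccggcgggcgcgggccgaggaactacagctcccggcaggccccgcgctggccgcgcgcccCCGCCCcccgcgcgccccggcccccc

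RefSeq gave 16 such windows for the 9 members, and every member had at least 1. A GC box on either strand was present in 13 of the 16 windows, against 42.6% of all 35116 promoter windows of the same length. Each of the 9 genes had a GC box in at least 1 window, a count by gene that has no like share over all genes here. The member windows were also rich in G and C (57.2% to 82.8%, where the median of all windows is 58%). None of the 16 held the AP-1 motif TGANTCA, the site of the Fos and Jun factors, which 6.57% of all windows held. The cyclic AMP response element TGACGTCA was present in 1 window and an NF-kB motif in 1 window, both of PRKCZ, against 1.65% and 9.96% of all windows, and this NF-kB match did not overlap a GC box. No member window held the interferon-stimulated response element (3.02% of all windows) or TATAAA (10.7%). Both strands were searched. These are letter matches within the windows and do not locate a bound factor.

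The 12 libraries held an estimated 33649194 to 45587900 reads on genes. Averaged over genes, replicate libraries of a group differed by 3.65 to 17.4 times the sampling variance, so spread beyond that of depth was present. That mean does not describe each gene, and the precision of low genes such as PRKCZ is also limited by depth. The cell type label was checked against marker lists. All 8 mesenchymal markers were listed in both tables, with summed levels of 483545 to 496039 normalized counts in the PMA controls, 464683 to 484847 with PMA, 546009 to 624864 in the ConA controls and 408357 to 441782 with ConA. Of these 8, 5 fell with each treatment, while 2 rose with PMA and 1 with ConA. At the threshold used, an adjusted p of at most 0.05, 32.8% of all genes tested rose and 30.5% fell with PMA. With ConA 32.8% rose and 32.5% fell, and all marker counts here stand beside these shares. Of 8 epithelial markers, 2 were listed in the PMA table, with sums of 130.0 to 136 in the controls and 65.9 to 81.3 with PMA, and both fell. For ConA 6 were listed, with sums of 154 to 171 in the controls and 167 to 226 with ConA. Of 10 markers of B, myeloid and erythroid cells, 3 were listed in each table. Their sums were 304 to 337 in the PMA controls and 356 to 421 with PMA, and 449 to 477 in the ConA controls and 377 to 422 with ConA. FCER1G rose with PMA from 12.0, 10.7 and 4.51 to 44.1, 65.6 and 52.7 normalized counts (log2 fold change 2.53, adjusted p = 6.81e-05, limma). Its control mean was under the filter of 10, so it was tested only because the treated group was high. CSF1R did not pass the test with PMA (log2 fold change 0.12, adjusted p = 0.205, limma). LYZ was not tested with PMA. Its change was lower with PMA than with ConA (log2 difference -1.90, adjusted p = 0.00428, limma), a call lost after quantile normalization. T and NK cell markers, which HT1080 cells are not known for, were all listed in the PMA table (12 of 12, CD3E included), with sums of 1506 to 1727 in the controls and 2192 to 2968 with PMA, and 9 of the 12 rose there. Only 3 of the 12 were listed for ConA, with sums of 46.9 to 61.0 in the controls and 103 to 134 with ConA, and CD3E, CD3G, CD247 and PTPRC were not listed. The part of these markers in the changes of PKC genes was not tested. In bulk RNA, fewer cells of a type and less RNA per cell cannot be told apart.

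The first question was which of these kinases HT1080 cells express, and in what order. Normalized counts were divided by the length of the principal GENCODE 29 transcript, because a longer transcript collects more reads. In the untreated cells of the PMA experiment PRKCD had the highest level (763 normalized counts per kb), followed by PRKCA (672). PRKCI (567) and PRKD2 (558) overlapped in their library values, as did PRKD3 (307) and PRKCE (292). PRKCH (91.8), PRKD1 (74.7) and PRKCZ (38.8) were the lowest. With the median coding transcript as length, PRKCE had 477 to 513 per kb in these libraries and stood above PRKD3 (297 to 322), so the place of PRKCE depends on the transcript chosen. Transcripts of every class were present, with PRKCA as the only conventional isoform among the 9. PRKCB, another conventional gene, was low in the PMA table and not listed in the ConA table. In the ConA controls PRKCD was again highest (973 per kb), PRKD2 (709), PRKCA (707) and PRKCI (652) overlapped, PRKD3 (334) and PRKCE (306) came next, PRKD1 (94.7) and PRKCH (86.3) overlapped, and PRKCZ (28.9) was lowest.

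**Figure D1:**
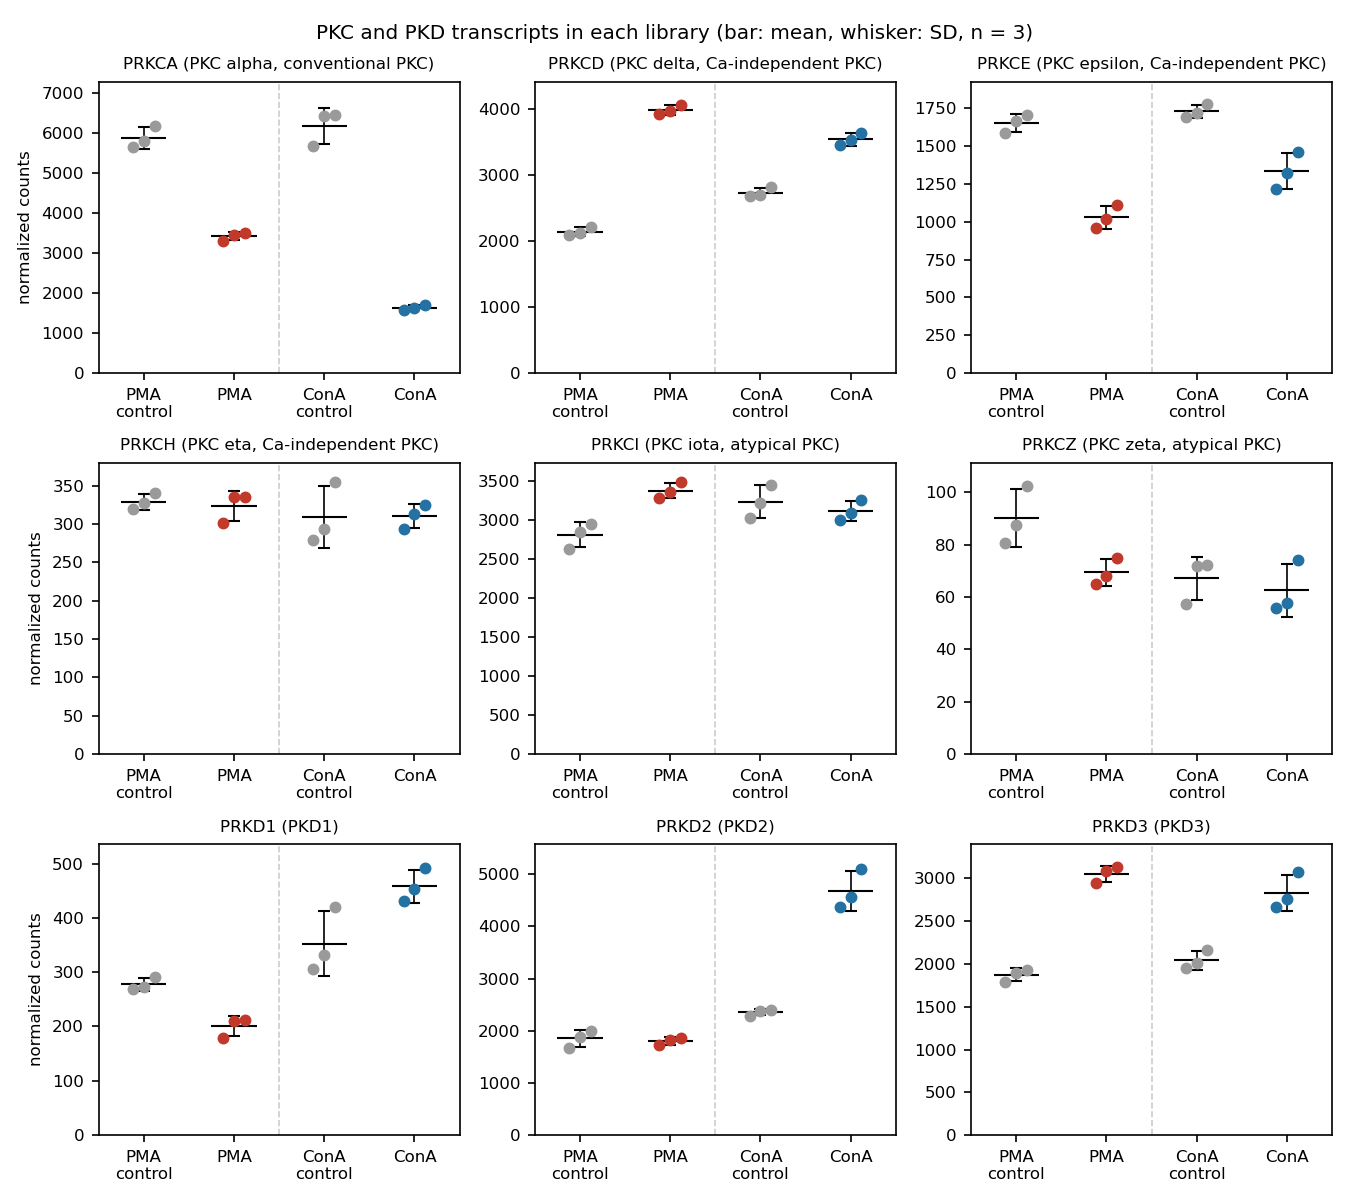
Normalized counts (vertical axis, linear, from 0) of each of the 9 kinases in the 12 libraries. Each point is a library, the bar is the mean of 3 and the whisker is the SD. A dashed line separates the PMA and ConA experiments, which were scaled apart. The PMA libraries of PRKCA span 3306 to 3502 and the ConA libraries 1579.8 to 1702, below every control, whereas the PRKCH groups overlap in both experiments.

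With PMA, 3 of the 9 kinases rose (PRKCD, PRKD3 and PRKCI), 4 fell (PRKCA, PRKCE, PRKD1 and PRKCZ) and 2 (PRKCH and PRKD2) did not pass the test. These 7 of 9 stand beside 63.3% of the 15153 genes tested that passed the same threshold, an adjusted p of at most 0.05 with limma (32.8% higher and 30.5% lower), so the share of members called is not in itself a result about them. None of the 9 passed the study's stricter rule (a change of 1 or more on the log2 scale in either direction, with an adjusted p no higher than 0.0001), which 8.65% of all genes did (4.03% higher and 4.61% lower). Throughout, the cut-offs of that rule were applied to limma values, so a pass here is not a call made by the study. The groups did not overlap in 7 of the 9 (3 above and 4 below their controls), beside 67.9% of all genes (34.8% above and 33.1% below). The median absolute log2 fold change was 0.47 over the 9 kinases and 0.30 over all genes tested.

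PRKCA, the conventional isoform, had 5799, 5648 and 6194 normalized counts in the controls and 3502, 3306 and 3452 with PMA. Every treated library lay below every control library. The level fell by 41.8%, a log2 fold change of -0.78 (SE 0.045, adjusted p = 4.25e-08, limma).

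The calcium-independent isoforms split. PRKCD, a kinase tied to apoptosis and to growth arrest, had 2219, 2125 and 2091 normalized counts in the controls and 4071, 3925 and 3980.0 with PMA. All 3 treated libraries were above all controls, and the level rose 1.86-fold (log2 fold change 0.90, SE 0.041, adjusted p = 5.79e-09, limma), the largest rise among the 9. PRKCE, which has been linked to cell motility and survival, had 1705, 1585 and 1666 normalized counts in the controls and 1016, 1113 and 959 with PMA. It fell by 37.7% without overlap between the groups (log2 fold change -0.68, SE 0.060, adjusted p = 1.72e-06, limma). PRKCH, known best from epithelia and lymphocytes, stood at 319, 327 and 340.3 in the controls and 301, 335 and 335 with PMA. The groups overlapped and the log2 fold change was -0.03, with a 95% interval of -0.20 to 0.15.

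Of the atypical isoforms, PRKCI, a polarity kinase that acts in complex with PAR proteins, had 2837, 2630.1 and 2946 normalized counts in the controls and 3281, 3478 and 3354 with PMA. The groups did not overlap and the rise was small, 1.20-fold (log2 fold change 0.27, SE 0.049, adjusted p = 5.64e-04, limma). PRKCZ had 87.4, 80.6 and 103 normalized counts in the controls and 68.1, 75.0 and 65.0 with PMA. The groups did not overlap, and the log2 fold change of -0.37 (SE 0.146) had an adjusted p of 0.0454 with limma. This call was lost without PMA control 1, PMA control 3, PMA replicate 1 or PMA replicate 3 (adjusted p between 0.0824 and 0.179, limma). PRKCZ reads cannot be told from those of its antisense neighbour PRKCZ-AS1, listed at 7.15 to 23.8 in the same libraries, because the use of strand in counting is not given in the sources used here.

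The PKD genes did not move together. PRKD3 had 1898, 1786 and 1935 normalized counts in the controls and 2946, 3129 and 3084 with PMA. It rose 1.63-fold, with every treated library above every control (log2 fold change 0.70, SE 0.046, adjusted p = 1.29e-07, limma). PRKD1, the founding member of the PKD family, had 269, 274 and 292 normalized counts in the controls and 212, 179.7 and 211 with PMA. It fell by 27.8% without overlap (log2 fold change -0.47, SE 0.094, adjusted p = 0.00111, limma). PRKD2, known for its roles in lymphocytes and endothelium, had 1886, 1671 and 1999 normalized counts in the controls and 1867, 1728 and 1818 with PMA. The treated values lay inside the control range, and the log2 fold change was -0.03 (95% interval -0.17 to 0.11).

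With ConA, 4 of the 9 rose (PRKD2, PRKD3, PRKD1 and PRKCD), 2 fell (PRKCA and PRKCE) and 3 (PRKCH, PRKCI and PRKCZ) did not pass the test, beside 65.3% of the 15139 genes tested that passed it with limma (32.8% higher and 32.5% lower). All 3 PKD genes were among those that rose. PRKCA was the only member past the study's rule, which 8.71% of all genes passed (5.83% higher and 2.88% lower). The groups did not overlap in 6 of the 9 (4 above and 2 below), beside 69.3% of all genes (34.9% above and 34.4% below). The median absolute log2 fold change was 0.38 over the 9 kinases and 0.34 over all genes.

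PRKCA had 6425, 5677 and 6465 normalized counts in the ConA controls and 1702, 1639 and 1579.8 with ConA. The treated libraries lay close together and far below all controls. The level fell by 73.5%, a 3.77-fold difference (log2 fold change -1.91, SE 0.062, adjusted p = 4.11e-12, limma), and its absolute log2 fold change exceeded that of 96.6% of the genes tested. The call under the study's rule was also made in all 14 alternative settings.

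PRKD2 had 2375, 2290.2 and 2394 normalized counts in the ConA controls and 4366, 4569.6 and 5101 with ConA. The groups were far apart. The level rose 1.98-fold (log2 fold change 0.99, SE 0.062, adjusted p = 6.62e-09, limma), just short of the study's fold threshold, and it passed that rule without ConA control 6, ConA replicate 1 or ConA replicate 2, with log2 fold changes of 0.92 to 1.04 as each library was left out. PRKD3 had 2162, 2008 and 1957 normalized counts in the controls and 2663, 3074 and 2755 with ConA. It rose 1.38-fold without overlap (log2 fold change 0.47, SE 0.065, adjusted p = 2.13e-05, limma). PRKD1 had 421, 305 and 333 normalized counts in the controls and 432, 491 and 453 with ConA. The highest control (421) lay close to the lowest treated library (432), although the groups did not overlap, and the log2 fold change was 0.39 (SE 0.111, adjusted p = 0.00711, limma).

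Among the calcium-independent isoforms, PRKCD had 2689, 2699 and 2816 normalized counts in the ConA controls and 3647, 3451 and 3529 with ConA. It rose 1.30-fold without overlap (log2 fold change 0.37, SE 0.052, adjusted p = 2.26e-05, limma). PRKCE had 1777, 1719.9 and 1695 normalized counts in the controls and 1458, 1219 and 1324 with ConA. All treated libraries were below all controls, and the level fell by 23.1% (log2 fold change -0.38, SE 0.069, adjusted p = 2.40e-04, limma). The other members gave overlapping groups. PRKCH had 354, 279 and 294 against 293, 313 and 325 normalized counts with ConA (log2 fold change 0.01, 95% interval -0.21 to 0.24). PRKCI had 3448, 3025 and 3212 against 3002, 3256 and 3079.6 (log2 fold change -0.05, 95% interval -0.18 to 0.08). PRKCZ, at 71.8, 57.5 and 72.0 against 57.8, 74.2 and 55.6, had the widest interval (log2 fold change -0.10, 95% interval -0.49 to 0.28), so these libraries do not tell apart the changes within that interval.

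**Figure D2:**
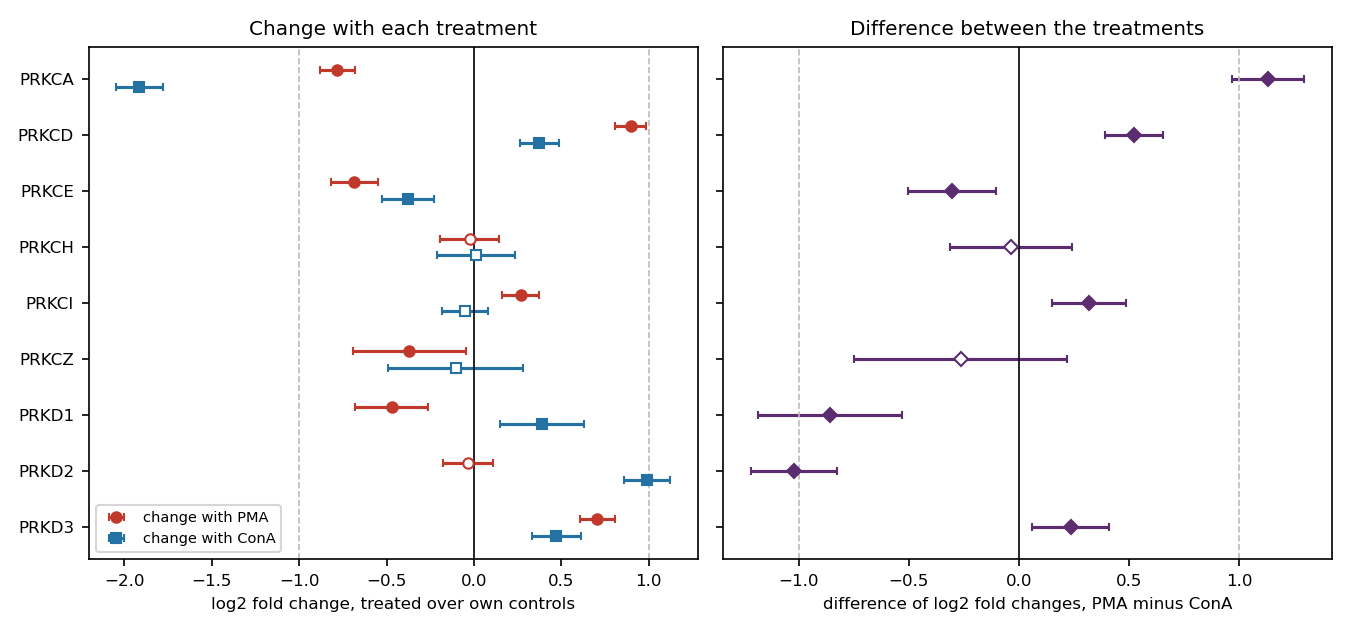
Log2 fold changes of the 9 kinases with each treatment (left, circles for PMA and squares for ConA) and the difference between them, PMA minus ConA (right, diamonds). Whiskers are 95% intervals from limma, filled symbols have an adjusted p of at most 0.05 and dashed lines mark an absolute log2 value of 1. PRKCA lies at -0.78 with PMA and -1.91 with ConA, and PRKD2 at -0.03 and 0.99.

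Whether the treatments differed was tested by subtracting the ConA change from the PMA change in a limma fit of all 12 libraries and 4 group means. The treatments were given in separate experiments, so treatment and experiment cannot be told apart in these differences. The test was passed by 7 of the 9, beside 61.1% of the 15030 genes tested (30.4% higher and 30.7% lower). PRKCA and PRKD2 also passed the study's rule, which 10.6% of genes did (3.67% higher and 6.89% lower).

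The fall of PRKCA was larger with ConA, by 1.13 on the log2 scale (SE 0.078, 95% interval 0.97 to 1.30, adjusted p = 1.32e-09, limma). The change of PRKD2 was lower with PMA than with ConA by a log2 difference of -1.02 (SE 0.093, 95% interval -1.22 to -0.83, adjusted p = 4.91e-08, limma). PRKD2 no longer passed the study's rule without PMA control 3, PMA replicate 2 or ConA replicate 3 (log2 differences of -1.10 to -0.96 as each library was left out). PRKD1 fell with PMA and rose with ConA, a log2 difference of -0.86 (SE 0.154, adjusted p = 1.21e-04, limma). It was the only member to pass the test in opposite directions. PRKCD rose with both, more with PMA (log2 difference 0.52, SE 0.062, adjusted p = 1.38e-06, limma). PRKCE fell with both, more with PMA (log2 difference -0.30, SE 0.095, adjusted p = 0.0104, limma). PRKCI differed by 0.32 (adjusted p = 0.00223, limma) and PRKD3 by 0.24 (adjusted p = 0.0202, limma), and the PRKD3 call was lost without PMA control 2, PMA replicate 2, ConA control 4, ConA replicate 1 or ConA replicate 3 (adjusted p between 0.0501 and 0.0560, limma). For PRKCH (log2 difference -0.04, 95% interval -0.32 to 0.24) and PRKCZ (-0.26, 95% interval -0.75 to 0.22) the test was not passed, and the PRKCZ interval leaves room for a sizeable difference.

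The make-up of the kinase transcripts followed from these changes. As a share of the summed level per kb of the 9, the conventional class (PRKCA) made up 20.0% ± 0.462 (SD, n = 3) of the control level and 10.0% ± 0.270 of the level with PMA. The calcium-independent class, here PRKCD, PRKCE and PRKCH only, made up 34.1% ± 1.36 in the controls and 43.5% ± 0.323 with PMA. The shares of the atypical class (18.0% and 18.3%) and of PKD (27.9% and 28.2%) were close to each other in controls and PMA. With ConA the conventional share was again lower, but the gain lay mainly with PKD. The conventional share was 18.2% ± 0.700 in the controls and 4.24% ± 0.248 with ConA, and the PKD share was 29.2% ± 0.427 in the controls and 45.1% ± 1.83 with ConA. The calcium-independent class had a like share in both (35.1% ± 0.949 and 35.8% ± 1.74), while the atypical class had 17.5% and 14.8%. The summed level of the 9 stood at 3364 ± 139 normalized counts per kb without and 3892 ± 13.1 with PMA, and at 3891 ± 148 without and 4422 ± 93.1 with ConA. These shares carry no test, and they depend on the transcript taken for length. With the median coding transcript, an alternative added after the data were seen, the conventional share was 18.3% and 9.44% in the PMA experiment and 16.7% and 3.91% in the ConA experiment. The share of PRKCE moved most with this choice, from 8.69% to 13.5% in the PMA controls, and the share of the calcium-independent class in the ConA experiment was then 38.3% in the controls and 37.5% with ConA, the reverse order.

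**Figure D3:**
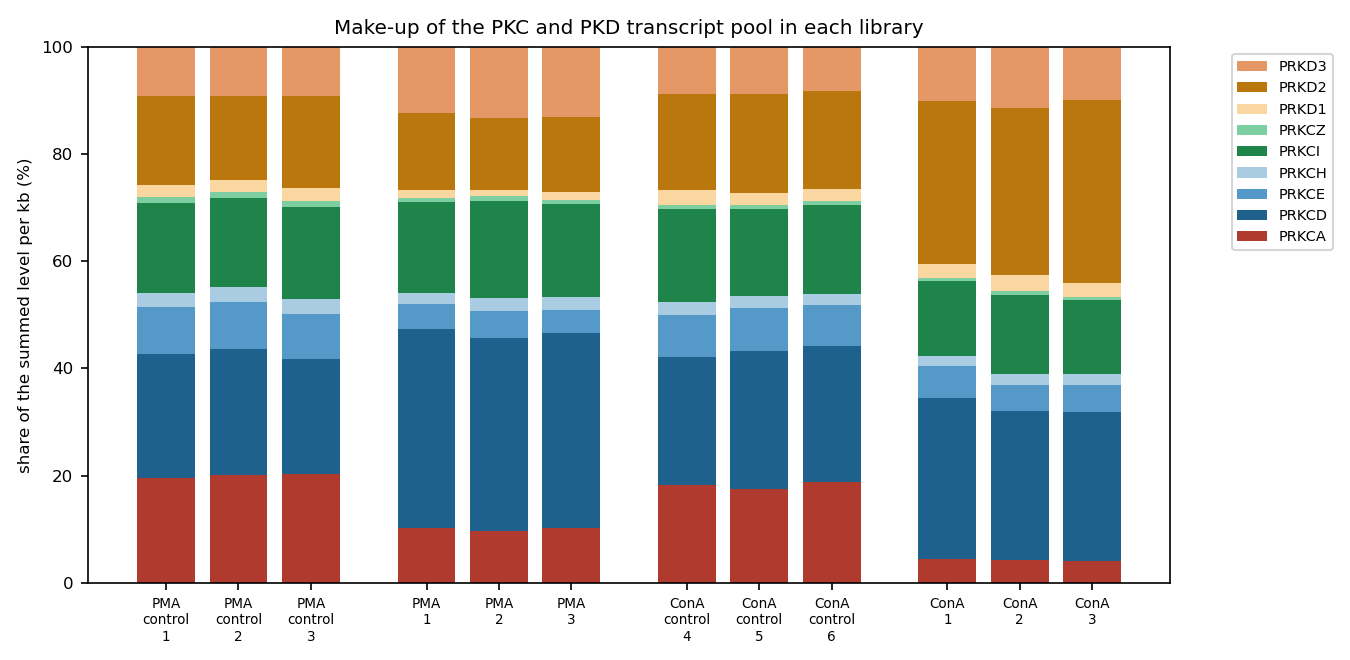
Share (%) of each kinase in the summed level per kb of the 9, one stacked bar for each of the 12 libraries. The red segment at the base is PRKCA, blue segments are the calcium-independent class (PRKCD, PRKCE and PRKCH), green atypical and brown to orange PKD. PRKCA takes 10.0% of the bar on average with PMA and 4.24% with ConA, and PKD takes 45.1% with ConA.

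The order of levels per kb changed accordingly. With PMA it ran PRKCD (1421), PRKCI (681), PRKD2 (543), PRKD3 (499.6), PRKCA (391), PRKCE (182), PRKCH (90.3), PRKD1 (53.9) and PRKCZ (29.8), with no overlap between neighbours. With ConA it ran PRKD2 (1409), PRKCD (1261), PRKCI (629), PRKD3 (463), PRKCE (236), PRKCA (187), PRKD1 (123), PRKCH (86.7) and PRKCZ (26.9), again with no overlap. PRKCA took the second place in the PMA controls and the fifth with PMA, and in the ConA experiment it went from values that overlapped those of PRKD2 and PRKCI to the sixth place. Within libraries, the ratio of PRKCD to PRKCA normalized counts, not corrected for length, went from 0.365 ± 0.0244 (SD, n = 3) in the controls to 1.17 ± 0.0177 with PMA, and from 0.443 ± 0.0293 to 2.16 ± 0.0659 with ConA. The ratio of PRKD3 to PRKD1 was 6.74 ± 0.276 in the controls and 15.3 ± 1.87 with PMA, but 5.87 ± 0.722 and 6.17 ± 0.0871 in the ConA experiment.

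PRKCA, the only member past the study's rule with either treatment, was compared with all other genes by the pattern over the 12 libraries. Values were on the log2 scale, less the mean of the controls of the same experiment. The control libraries thus lie near 0, and r mainly follows how the PMA change relates to the ConA change. The most alike of 14660 genes were TBL1X, a subunit of a corepressor complex (Pearson r 0.999, log2 fold changes -0.55 with PMA and -1.24 with ConA), RAB6B, a Rab GTPase (r 0.997, -0.35 and -0.91), and FAM171A1 (r 0.997, -0.54 and -1.52). The points share their libraries and scaling, and a high r is easily reached by the best of so many genes, so the r values are a description.

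Genes around these kinases were described by 6 lists, with medians near 0 over all genes (0.003 with PMA and -0.002 with ConA). Every count below stands beside the shares of all genes that passed the same test, 32.8% higher and 30.5% lower with PMA and 32.8% higher and 32.5% lower with ConA, and no list was tested as a whole or between treatments. The further PKC and PKN kinases came first. With PMA 3 of 5 tested rose and 1 fell, and with ConA 3 of 4 rose and 1 fell. PKN3, a kinase related to the PKCs, fell with PMA (log2 fold change -0.53, adjusted p = 0.00297, limma) and rose with ConA (0.41, adjusted p = 7.63e-04, limma), while the related PKN2 rose with both (0.28 and 0.44). PRKCB, a conventional isoform of lymphocytes, had 48.9, 58.1 and 47.8 normalized counts in the PMA controls and 73.1, 85.5 and 146 with PMA (log2 fold change 0.90, SE 0.232, adjusted p = 0.00523, limma). The T and NK cell markers of the same libraries moved the same way, from 1506 to 1727 up to 2192 to 2968 in sum. FCER1G also rose, but it was tested only because the treated group was high, and CSF1R did not pass the test. The part of these markers in the PRKCB change was not tested. PRKCQ, the theta isoform of T cells, had 34.1, 38.5 and 33.4 in the PMA controls and 24.4, 40.9 and 38.3 with PMA. In the ConA experiment PRKCQ had 10.4, 14.0 and 14.0 in the controls and 40.1, 29.3 and 51.2 with ConA (log2 fold change 1.55, SE 0.286, adjusted p = 2.74e-04, limma), in libraries where CD3E was not listed but GZMA, the only T and NK cell marker to rise there, had 12.5, 9.0 and 13.0 in the controls and 60.1, 85.7 and 80.0 with ConA (log2 fold change 2.61, adjusted p = 5.32e-07, limma). The part of these markers in the PRKCQ change was not tested. Its antisense neighbour PRKCQ-AS1 stood at 102 to 129 in those controls and 162 to 183 with ConA, and reads of the pair cannot be told apart without strand.

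Phospholipase C enzymes make the diacylglycerol that conventional and calcium-independent PKCs sense. With PMA 3 of 12 rose and 5 fell (median log2 fold change -0.17), and with ConA 4 rose and 6 fell (median -0.22). PLCH1 had 140.1, 135 and 127 normalized counts in the PMA controls and 18.6, 29.5 and 28.7 with PMA, a log2 fold change of -2.37 (adjusted p = 9.43e-07, limma), and it fell with ConA too (-1.39, adjusted p = 1.76e-06, limma). PLCB1 and PLCD3 also fell with both treatments, by log2 fold changes of -1.73 and -1.18 with PMA and -1.08 and -1.08 with ConA. PLCG2, a phospholipase of immune receptor signalling, had the largest change of the list with ConA, with 86.5, 96.0 and 90.2 in the ConA controls and 663, 646 and 733 with ConA (log2 fold change 2.89, SE 0.099, adjusted p = 7.77e-12, limma). With PMA its log2 fold change was -0.02 and did not pass the test. PLCH2 fell with ConA (-1.34, adjusted p = 0.00300, limma) and stood at 0.03 with PMA.

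Diacylglycerol kinases remove the same lipid. With PMA 5 of 8 rose and 2 fell (median 0.30), led by DGKI (1.20, adjusted p = 4.70e-07, limma) and DGKD (1.01, adjusted p = 7.70e-09, limma). With ConA 4 of 8 rose and 2 fell (median 0.24), and the largest change was that of DGKG, with 319, 302 and 329 normalized counts in the controls and 812, 987 and 971 with ConA (log2 fold change 1.54, adjusted p = 2.56e-09, limma). DGKH also rose with PMA (0.87, adjusted p = 2.41e-06, limma). With ConA DGKA fell (-0.74) and DGKE rose (0.61). DGKG fell with PMA (-0.32, adjusted p = 0.00533, limma), and its changes differed between the treatments by -1.86 (adjusted p = 6.58e-10, limma).

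Other C1 domain receptors of phorbol esters were listed with relatives from the same families, not all of which bind phorbol esters. Of these, 2 rose and 3 fell of 8 with PMA (median -0.19), and 4 rose and 1 fell of 7 with ConA. UNC13C with PMA and RASGRP1 with ConA had control levels under the filter of 10 and were tested only because the treated group was high, so these counts are not read further, and the ConA median of 1.88 is the value of RASGRP1 itself. RASGRP3, an exchange factor that loads Ras and Rap, had 14.6, 9.0 and 9.02 normalized counts in the ConA controls and 276, 368 and 356 with ConA. It rose 28.6-fold (log2 fold change 4.84, SE 0.208, adjusted p = 1.14e-10, limma), from a level near the filter of 10. UNC13A, a vesicle priming protein, had 17.7, 19.0 and 17.0 in the controls and 99.1, 149 and 151 with ConA (log2 fold change 2.80, adjusted p = 3.81e-08, limma). UNC13C had 11.1, 6.26 and 4.51 normalized counts in the PMA controls and 20.9, 24.7 and 15.6 with PMA. It rose with both treatments, by 1.42 with PMA (adjusted p = 0.00775, limma) and 2.28 with ConA (adjusted p = 1.82e-05, limma). UNC13A fell with PMA (-0.78, adjusted p = 0.0296, limma), a call that was lost after quantile normalization and without PMA control 1, PMA control 2 or PMA replicate 3 (adjusted p up to 0.197 over the alternatives), and CHN1, a Rac GTPase-activating protein, fell with PMA (-0.72, adjusted p = 2.94e-05, limma). RASGRP1 rose with ConA by 1.88 from 3.01 to 6.25 normalized counts in the controls, so its fold change rests on few reads.

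Of the genes for PKC maturation, turnover and scaffolds, 12 of 21 rose and 5 fell with PMA (median 0.40), beside 63.3% of all genes called, and with ConA 5 of 20 rose while 11 fell (median -0.18), beside 65.3%. AKAP12, a scaffold that holds PKC and protein kinase A, had 7272, 7181 and 7033 normalized counts in the PMA controls and 52628, 52412 and 51514 with PMA. This was the largest change of the list, 7.29-fold (log2 fold change 2.87, SE 0.035, adjusted p = 1.87e-13, limma), whereas AKAP12 fell slightly with ConA (-0.25, adjusted p = 0.00996, limma). In the ConA experiment its groups overlapped, and the call was lost without the variance trend and without ConA control 6 (adjusted p up to 0.0673, limma). PPP1R14C, a phosphatase inhibitor that PKC activates, rose with PMA (1.47, adjusted p = 6.68e-07, limma). PARD6A, a polarity partner of atypical PKCs, fell with PMA (-1.22, adjusted p = 2.52e-05, limma) and ConA (-1.12, adjusted p = 0.00106, limma). The related PARD6G also fell with both (-0.89 and -0.73). PARD6B rose with both, by 0.63 with PMA (adjusted p = 3.09e-04, limma) and 0.56 with ConA (adjusted p = 0.0176, limma). The ConA call of PARD6B was lost without ConA control 4, ConA replicate 1 or ConA replicate 2. RICTOR and MAPKAP1 are subunits of mTORC2, the complex that phosphorylates newly made PKC. With ConA they moved apart, RICTOR by 1.45 (adjusted p = 1.40e-08, limma) and MAPKAP1 by -1.36 (adjusted p = 2.38e-11, limma). With PMA both rose, by 0.40 and 0.51. PDPK1, the kinase that primes PKC, changed little, by -0.13 with PMA (adjusted p = 0.0196, limma; up to 0.0942 and lost without PMA control 1 or PMA replicate 2) and -0.21 with ConA (adjusted p = 0.00260, limma).

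Known PKC and PKD substrates gave 7 that rose and 5 that fell of 15 with PMA (median 0.16) and 7 that rose and 3 that fell of 15 with ConA (median 0.12). RIN1, a Ras effector and PKD substrate, had 1463, 1517 and 1579 normalized counts in the PMA controls and 416, 417 and 409 with PMA (log2 fold change -1.87, adjusted p = 1.38e-10, limma). With ConA its groups overlapped at -0.11. GAP43, a growth cone protein, fell with PMA by 2.17 on the log2 scale (adjusted p = 3.51e-07, limma) and rose with ConA by 0.39 (adjusted p = 0.00832, limma). PLEK, a platelet and leukocyte substrate, had 15.7, 22.4 and 20.8 normalized counts in the PMA controls and 74.3, 77.0 and 114 with PMA (log2 fold change 2.10, adjusted p = 9.96e-06, limma). In the same libraries 9 T and NK cell markers rose. FCER1G rose there too, but it was tested only because the treated group was high, and CSF1R did not pass the test. The part of these markers in the PLEK change was not tested. PLEK also rose with ConA (1.82, adjusted p = 2.97e-04, limma), where its controls (5.00 to 8.34) were under the filter of 10 and it was tested only because the treated group was high. MARCKSL1 fell with PMA (-0.64, adjusted p = 1.12e-06, limma) and with ConA (-0.43, adjusted p = 3.94e-05, limma). MARCKS, the classical PKC substrate, did not pass the test with PMA (0.21, SE 0.230) or ConA (0.10, SE 0.304), and these SEs leave room for a change in either direction.

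**Figure D4:**
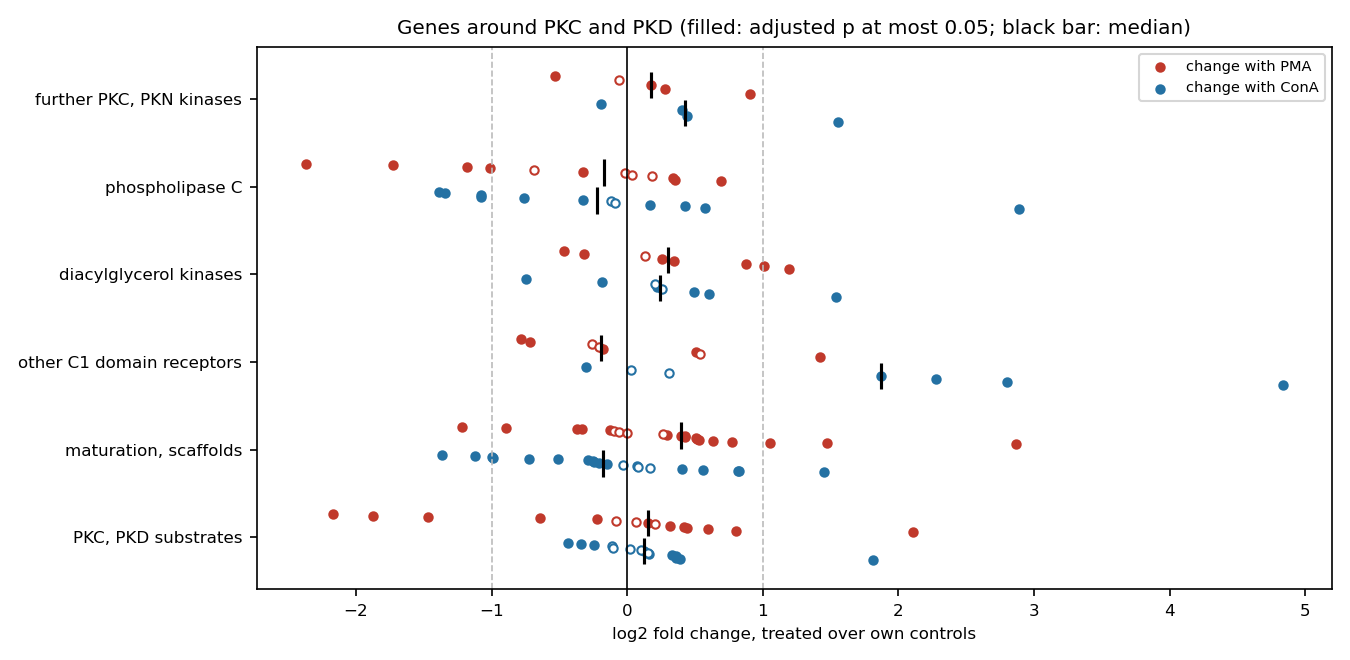
Log2 fold changes of the genes of 6 lists around PKC and PKD, in red with PMA and in blue with ConA. Each point is a gene, filled where the adjusted p was at most 0.05, black bars are list medians (for the other C1 receptors and their relatives with ConA, the value of RASGRP1) and dashed lines mark an absolute value of 1. RASGRP3 lies at 4.84 and PLCG2 at 2.89 with ConA, and AKAP12 at 2.87 with PMA.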

How the data were processed

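RNA of 12 HT1080 libraries was selected for poly(A) and sequenced by a service company. The authors deposited signal values, normalized counts for each gene symbol, divided by a factor for each library within each table apart and not by length. The submitters' processing notes name STAR, Bowtie2, Partek and DESeq2 and the builds hg19 and mm10, with no role given, and strand use is not given in the sources used here. Estimated reads (33649194 to 45587900 per library) set the depth. Whole reads could not be recovered for all genes, so tests for counts were not run.

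Groups came from the labels. Genes with a mean of at least 10 were tested in each table with limma 3.58.1 (R 4.3.3, variance trend) on log2(normalized count + 1), and the difference over all 12 libraries, with Benjamini-Hochberg adjustment over all genes. Fold changes are on this scale and understate those of low genes. An exact permutation test of 3 against 3 cannot go below p = 0.1 and was not used. "Rose" and "fell" mean an adjusted p of at most 0.05. The script was tested on simulated data. Alternatives covered the pseudocount (0.1 and 10), the filter (none and 50), quantile normalization, median centring, no variance trend, a fit of all libraries, the replicate number as a block, transcript length, and leaving out each library.

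The members and lists were chosen with earlier results of these data known. Genes named were the members, the 3 most changed genes per list and treatment among those past the test, and the 3 genes most like a member past the study's rule. Some further list and marker genes (PDPK1, MARCKS, RASGRP1, PARD6B, PARD6G, CSF1R, LYZ, and others given beside a second treatment) were chosen after their values were seen. Lengths are from GENCODE 29 and promoter sequences from RefSeq. Python 3.11.15 with pandas 2.3.3, numpy 2.4.6 and matplotlib 3.10.9 made the tables and figures.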

Additional observations from a re-analysis of the deposited data

Results flagged for a closer look

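PRKCA and PRKD2 stood out because their change with PMA differed from their change with ConA by more than 1 on the log2 scale. The difference was 1.13 for PRKCA (SE 0.078, adjusted p = 1.32e-09, limma), which fell with both treatments in 3 of 3 libraries against every control. For PRKD2 it was -1.02 (SE 0.093, adjusted p = 4.91e-08, limma), with 3 of 3 ConA libraries above every control and the PMA libraries inside the control range. Each treatment has an experiment of its own, so treatment and experiment cannot be told apart.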

How the results depend on the processing

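Of the counts of calls recomputed under the alternatives, 279 stayed within 1.5 times the value given and 9 moved, and of the members' log2 fold changes 406 kept their direction and their side of the threshold. Without the variance trend the genes past the study's rule numbered 867 with PMA (against 1310) and 662 with ConA (against 1318). Under median centring 0 members were lower past that rule in the difference between treatments, against 1 (PRKD2), and leaving out a library gave 0 to 1. Leaving out a library gave 0 to 1 members higher past the rule with ConA (PRKD2), against 0. Among the 9 members, signs turned only for values that did not pass the test. PRKCH was 0.067 with PMA, -0.074 with ConA and 0.14 in the difference after quantile normalization, and -0.050 with ConA and 0.012 in the difference under median centring, and PRKCZ was 0.031 in the difference after quantile normalization. With a library left out PRKCH ranged from -0.052 to 0.027 with PMA, -0.056 to 0.12 with ConA and -0.14 to 0.031 in the difference, and PRKD2 from -0.11 to 0.023 with PMA.

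PRKCZ lost its PMA call after quantile normalization (adjusted p = 0.337, limma), in the fit of 12 libraries (0.0564) and with the replicate block (0.0716). The PRKD3 difference was lost after quantile normalization (adjusted p = 0.0898, limma) and without PMA control 2, PMA replicate 2, ConA control 4, ConA replicate 1 or ConA replicate 3 (0.0501 to 0.0560). The cause was not tested. Same-numbered control and PMA libraries had weakly correlated deviations (r of -0.06, 0.10 and 0.10), and pairs of other numbers ran from -0.18 to 0.11. With 3 libraries in each group this check cannot decide whether the numbers pair them. With the replicate block 3 members were higher and 3 lower with PMA, and 9545 genes passed the test. In the ConA experiment no number is shared. Depth limits PRKCZ, PRKCQ and RASGRP1, which had low levels.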
